A study of Mus musculus with 36 samples.

Results

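The genes followed here are 10 genes of the brain endothelium and its barrier: Cldn5, Slc2a1, Abcb1a, Mfsd2a, Pecam1, Flt1, Tek, Vwf, Icam1 and Vcam1. They were taken by gene name from the count tables, as 10 of the 53274 genes counted at all 3 ages, by a rule that holds no measured value. All 10 passed the filter on low counts at each age. In the brain, capillary endothelial cells are sealed by tight junctions, carry few transport vesicles and move nutrients through dedicated carriers, and together these features form the blood-brain barrier. Claudin-5 (Cldn5) closes the junctions, the glucose transporter GLUT1 (Slc2a1) brings in glucose, MFSD2A (Mfsd2a) takes up lysophospholipids that carry docosahexaenoic acid and restrains vesicle transport, and P-glycoprotein (Abcb1a) pumps drugs back into the blood. PECAM1, the VEGF receptor FLT1, the angiopoietin receptor TIE2 (Tek) and von Willebrand factor (Vwf) mark endothelium of the brain as well as that of other organs, and the receptors ICAM1 and VCAM1 hold leukocytes at the vessel wall and are raised on inflamed endothelium.

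The libraries came from forebrain/midbrain (F/M) and cerebellum (Cb) of mice aged 1, 2 and 3 months, with 3 libraries per genotype, region and age, 36 in all. The Tpp1-/- mice carry a targeted disruption of Tpp1, the gene of the lysosomal protease that is lost in the childhood neurodegenerative disease CLN2. The controls were unaffected siblings, wild type except for the library numbered 3 at 1 month in each region, which is Tpp1+/-. Nothing in the labels says whether F/M and Cb libraries with the same number came from 1 mouse, and p-values measure the spread between these libraries. Library totals ran from 10609896 to 29942380 counts, with a median of 21049839. Tpp1 stood at 16.1 to 27.8 CPM (the usual count scaled to library size, with TMM factors) in the Tpp1-/- libraries and at 42.1 to 110.8 CPM in the controls, without overlap in any group pair. Whole tissue was measured, so fewer endothelial cells and less RNA per endothelial cell cannot be told apart.

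The sex labels did not match the transcripts. At 1 month the 4 libraries labelled Female had 4748 to 7454 counts on 4 Y-linked genes and at most 0.0751 CPM of Xist, against 4584 to 9273 counts in the 8 labelled Male. At 3 months the 8 libraries labelled Male had at most 1 count on the Y-linked genes and 487 to 1538 CPM of Xist, like the 4 labelled Female. The 12 libraries of 2 months, all labelled Male, had 2043 to 7635 counts on the Y-linked genes and 0.0483 to 9.32 CPM of Xist. The highest of these Xist values was above any at 1 month. By these genes, the libraries of 1 and 2 months came from males and those of 3 months from females. Processing set thus changed together with age, and so did sex between 3 months and the other ages. Each comparison of genotype or region was therefore made within an age.

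Endothelial RNA was plain in every library. A list of 31 other endothelial genes, among them Cdh5 and Kdr, summed to between 529 and 759 CPM, and no gene of that list was at 0 in any library. In the controls Slc2a1 had the highest level per length, with a median of 42.3 RPKM (CPM per kilobase of exon, 18 libraries, 21.5 to 54.6). Cldn5 had a median of 12.2 RPKM (9.71 to 18.1), Mfsd2a one of 10.02 (6.19 to 15.7) and Abcb1a one of 7.50 (5.48 to 9.74). By median level per length, the 4 barrier genes lay above the endothelial identity genes Flt1 (median 5.29 RPKM), Tek (3.73 RPKM), Pecam1 (3.54 RPKM) and Vwf (1.39 RPKM). That order depends on exon length, which was 1416 bases for Cldn5 and 13504 for Flt1. In CPM, Flt1 stood above Cldn5, Mfsd2a and Abcb1a in the controls. Vcam1 had a median of 3.39 RPKM, close to Pecam1, and Icam1 stood lowest, at 0.384 RPKM (0.162 to 0.539). Within an age and region, some neighbouring genes overlapped in the spread of 3 libraries. Cldn5 and Mfsd2a did so in F/M and in Cb at 1 month, as did Tek and Pecam1 in both regions at that age. Abcb1a overlapped Flt1 in F/M at 1 month, while no neighbours overlapped in F/M at 3 months. In counts, Icam1 held 20 to 66 per library, which limits its precision, whereas Slc2a1 held 1357 to 5095. Abcb1b, a near copy of Abcb1a that encodes a similar transporter, had 1.17 to 4.39 CPM in the controls against 30.0 to 53.4 CPM for Abcb1a, and reads may have been split between the pair.

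**Figure D1:**
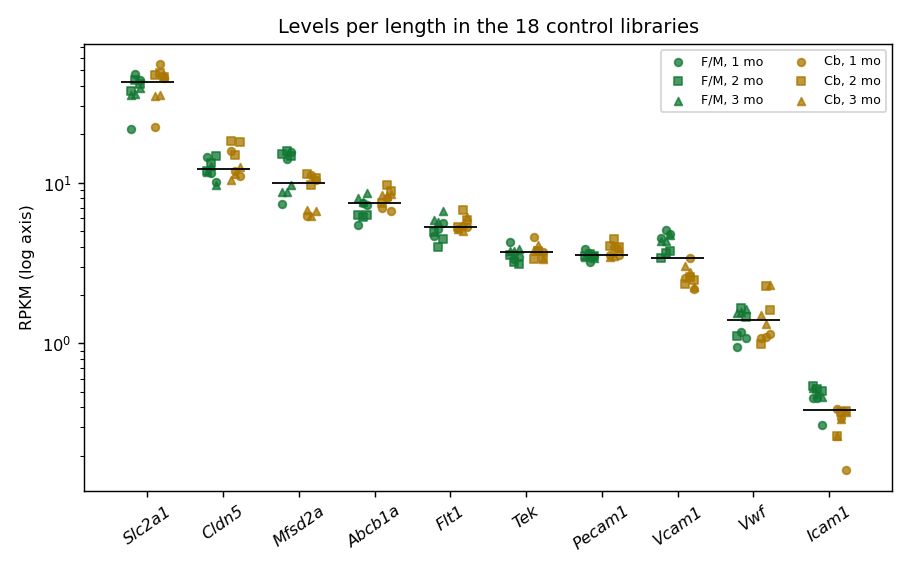
Level per length (RPKM, log axis) of the 10 genes in the 18 control libraries, coloured by region and shaped by age, with a bar at the median. Slc2a1 sits highest at a median of 42.3 RPKM and Icam1 lowest at 0.384 RPKM.

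The question put to these genes was whether the loss of Tpp1 changed them before or after symptoms begin. None of the 10 was a differentially expressed gene (DEG, adjusted p under 0.1 by edgeR with Benjamini-Hochberg adjustment and a fold change of at least 1.5) in any of the 6 comparisons of age and region. Over all genes tested, DEGs made up 0.0112% in each region at 1 month. In F/M they made up 0.737% at 2 months and 0.464% at 3 months, while in Cb the shares were 2.05% and 0.859%. Before adjustment, p was under 0.05 in F/M for 0, 5 and 1 of the 10 at the successive ages, where 1.89%, 16.9% and 5.94% of all genes had such a p. In Cb it was so for 1 of the 10 at each age, against 7.66%, 9.67% and 6.49% of all genes. DESeq2 and limma-voom also called 0 of the 10 as DEGs in each comparison. With the adjusted p alone as the rule, 1 of the 10 passed, Vcam1 in F/M at 2 months, where 3.17% of all genes did, and none passed in the other 5 comparisons, where between 0.0112% and 3.08% of all genes did (at 3 months 0.488% in F/M, 0.952% in Cb). The standard errors of their log2 fold changes reached 0.36 at 1 month, 0.20 at 2 months and 0.23 at 3 months.

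**Figure D2:**
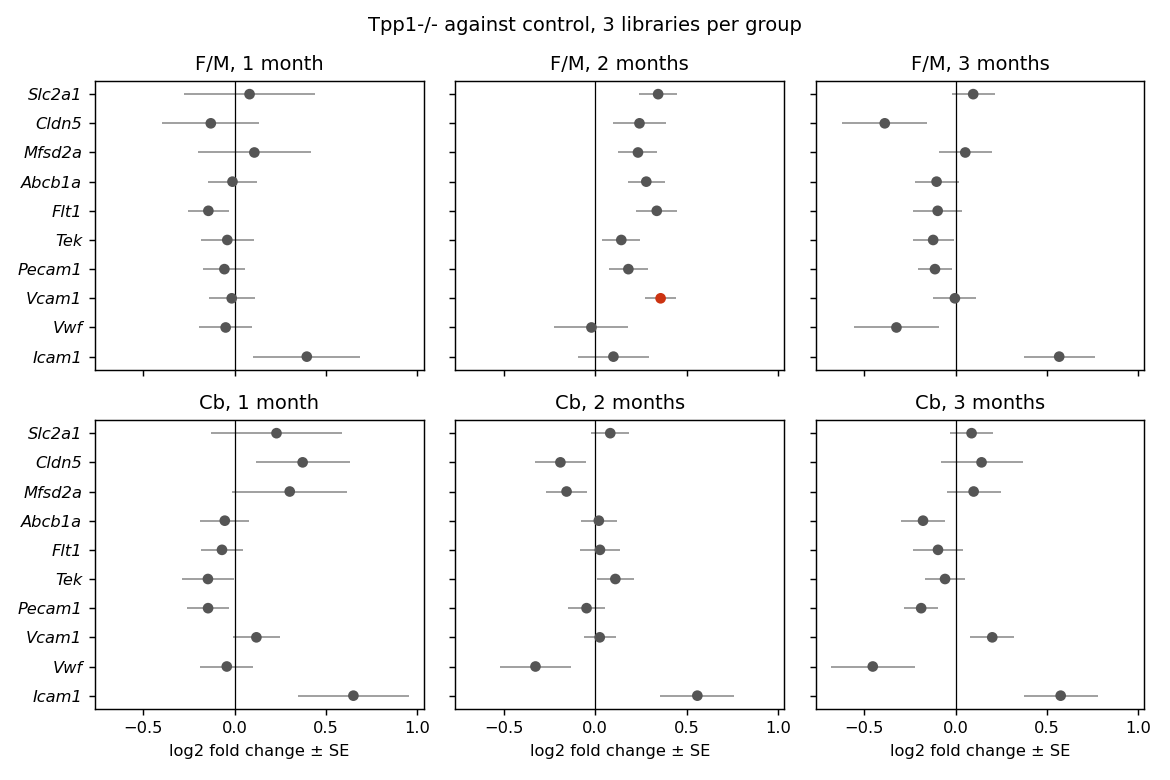
Log2 fold change of Tpp1-/- against control with its standard error for each gene, by age (columns) and region (rows), 3 libraries per group. The red point, Vcam1 in F/M at 2 months (0.36), is the comparison with an adjusted p under 0.1, and Icam1 lies to the right of 0 in all 6 panels.

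Among the barrier genes, Slc2a1 had a log2 fold change above 0 in all 6 comparisons, none of which edgeR called. In F/M at 2 months its level was 131, 153 and 144 CPM in controls and 217, 146 and 179 CPM in Tpp1-/- mice. The groups overlapped through Tpp1-/- replicate 2, and the log2 fold change of 0.34 (standard error 0.10) did not pass (edgeR adjusted p = 0.107), whereas DESeq2 put its adjusted p at 0.0489, where it passed 3.99% of all genes. By edgeR it passed without control replicate 2 (0.40, adjusted p = 0.0857), where 2.35% of all genes did, and without the filter on low counts (0.33, adjusted p = 0.00131). In the other 5 comparisons its log2 fold change was 0.08 to 0.23, with adjusted p of 0.871 or more.

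Cldn5 went in no constant direction. At 3 months it had 16.5, 18.1 and 13.7 CPM in F/M controls and 12.03, 14.7 and 10.2 CPM in Tpp1-/- mice, which gave a log2 fold change of -0.39 with a standard error of 0.23 (adjusted p = 0.984). In Cb at the same age the controls had 14.8, 15.96 and 17.7 CPM and the Tpp1-/- libraries 26.2, 13.0 and 14.2 CPM, a log2 fold change of 0.14 (adjusted p = 0.978). A single library, Tpp1-/- replicate 1, lay above the controls there, and without it the log2 fold change was -0.25. The groups overlapped for Cldn5 in all 6 comparisons. Fitted on the 6 F/M libraries of 3 months alone, Cldn5 passed the adjusted p threshold at -0.38 (edgeR adjusted p = 0.0721). That fit passed 3 of the 10 genes, with Vwf and Icam1, and 11.1% of all genes, against 0.488% in the fit of 12 libraries.

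Mfsd2a overlapped between the genotypes in all 6 comparisons, with log2 fold changes from -0.16 in Cb at 2 months to 0.30 in Cb at 1 month and adjusted p of 0.278 or more. Abcb1a had 34.5, 33.3 and 34.5 CPM in F/M controls of 2 months and 46.2, 38.3 and 39.1 CPM in Tpp1-/- mice. Here the groups did not overlap, as for 18.3% of all genes tested in that comparison, and the log2 fold change of 0.28 (standard error 0.10) had an adjusted p of 0.178. It passed in 2 of 22 other fits, with the replicate number as a block (0.27, adjusted p = 0.0781) and without the filter on low counts (0.26, adjusted p = 0.0727), where 3.52% and 3.46% of all genes passed. In the other 5 comparisons Abcb1a overlapped between the groups, with log2 fold changes from -0.18 to 0.02.

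A larger split of the barrier genes ran through the libraries of 1 month, between those numbered 1 and the rest, in both genotypes. Slc2a1 had 75.3 CPM in the F/M control numbered 1 and 82.8 CPM in the Tpp1-/- library numbered 1, against 167 and 152 CPM in the other controls and 183 and 153 CPM in the other Tpp1-/- libraries. In Cb it had 78.1 and 107 CPM in the libraries numbered 1 and 157 to 222 CPM in the other 4. Mfsd2a followed the same split, with 16.6 and 17.2 CPM against 31.6 to 37.0 CPM in F/M, and 13.9 and 18.1 CPM against 23.3 to 32.2 CPM in Cb. Cldn5 went the other way, with 20.5 and 19.95 CPM against 12.3 to 16.2 CPM in F/M and 22.4 and 35.4 CPM against 15.5 to 19.3 CPM in Cb. For each of the 3 genes the libraries numbered 1 did not overlap the others in either region.

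**Figure D3:**
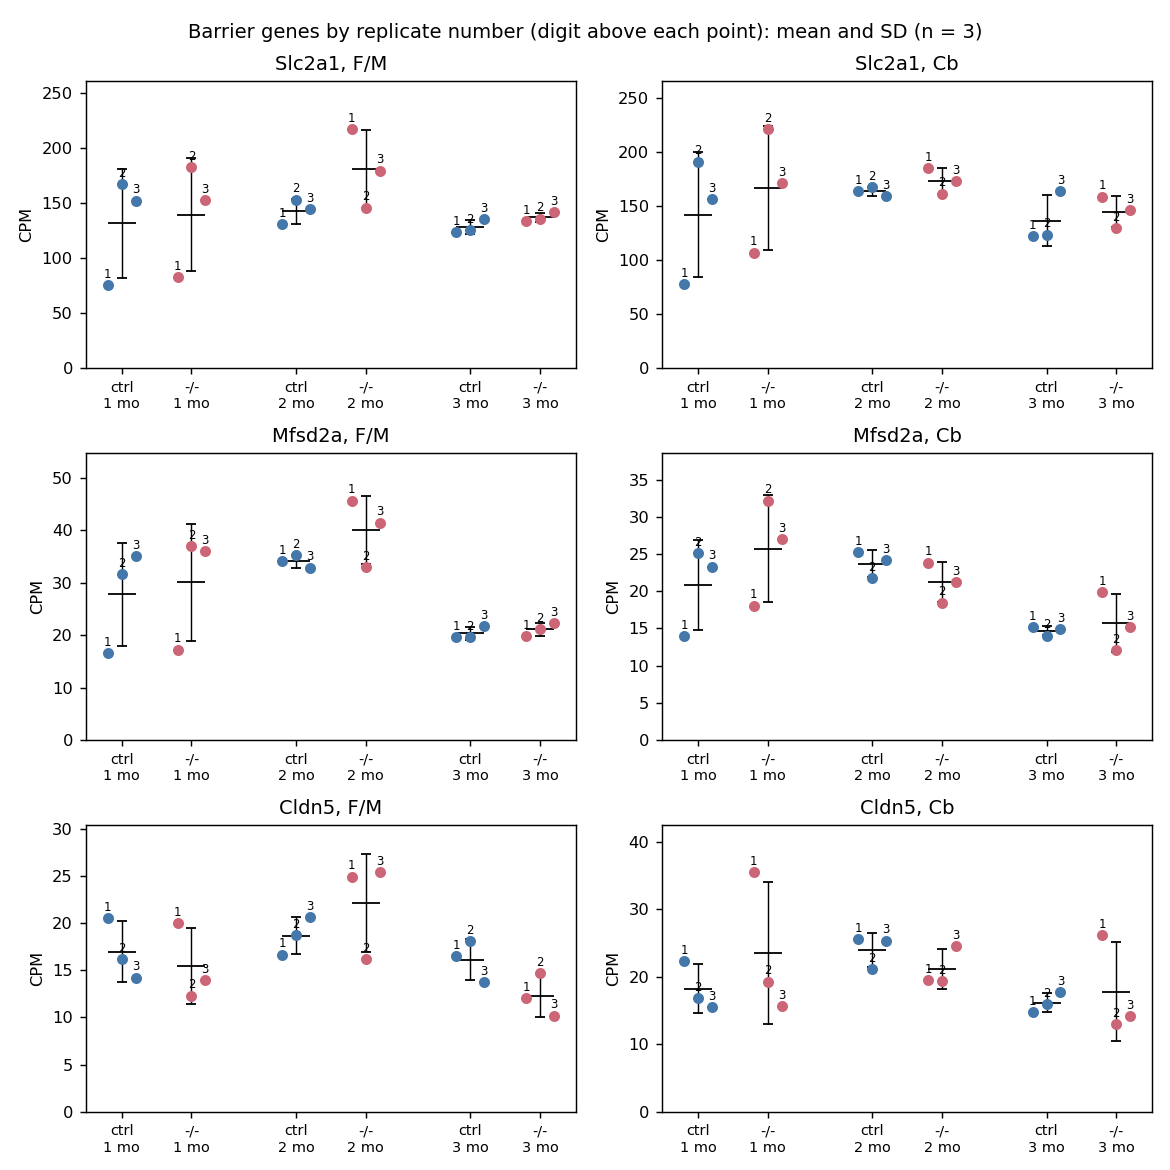
CPM of Slc2a1, Mfsd2a and Cldn5 in every library by region, age and genotype (blue control, red Tpp1-/-), with the replicate number above each point and the mean and SD of 3 libraries as bars. At 1 month the points numbered 1 of Slc2a1 lie at 75.3 to 107 CPM and all others at 152 CPM or above, which is not seen at 2 or 3 months.

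The libraries numbered 1 at 1 month are those labelled Female, although their transcripts were male. A fit with genotype and this label as terms, a comparison chosen after the values were seen and so a description of them, put Slc2a1 at a log2 difference of -1.06 in F/M, with -1.01 for Cb. Mfsd2a had a log2 difference of -1.05 in F/M, with -0.75 for Cb. For Cldn5 it was 0.51 in F/M. In Cb it was 0.76, and Tek was higher in F/M by 0.32. That made 4 of the 10 genes in F/M and 3 in Cb, at an adjusted p under 0.1 by edgeR, where 6% and 0.798% of all genes passed. At 3 months, where the libraries labelled Female are those numbered 3, the log2 difference of Slc2a1 was 0.10 in F/M and 0.21 in Cb, and none of the 10 genes passed, where 1.47% and 0% of all genes did. Label, replicate number and whatever set these libraries apart cannot be told apart at 1 month. Leaving out the 4 libraries numbered 1, chosen after the values were seen, changed no genotype call of the 10 genes at 1 month, with Slc2a1 at 0.07 in F/M and 0.17 in Cb.

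Slc2a1 and Mfsd2a were also the most alike pair of the 10 genes. After the mean of each age and region was removed, their log2 CPM had a Pearson r of 0.91 over the 36 libraries, and 0.81 over the 32 libraries without those numbered 1 at 1 month. Pairs among the 10 genes ranged from -0.62 (Slc2a1 with Tek, -0.37 without those libraries) to 0.91, with a median of 0.09 over 45 pairs, or 0.17 without those libraries. These values describe libraries that share depth and dissection and carry no test. The genes most like Slc2a1 among 16712 others were Lao1 (r = 0.92), Gm19439 (0.92) and Gjb6 (0.92), the last of which encodes the astrocyte gap junction protein connexin 30. For Mfsd2a they were Gm19439 (0.93), Tsc22d3 (0.92), which encodes a glucocorticoid-induced leucine zipper protein, and Sult1a1 (0.91). Cldn5 was most like S1pr5 (0.90), Ttc9b (0.88) and Trnp1 (0.87), and Abcb1a most like Adgrf5 (0.87), Itih5 (0.86) and Epas1 (0.86). Adgrf5 is on the list of 31 endothelial genes.

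Because Slc2a1 and Mfsd2a were the most alike pair, their promoters are shown, from 250 bases before to 50 bases after the RefSeq start on GRCm38.p6. Slc2a1 lies on chromosome 4 from 119108711 to 119137983 on the plus strand, with its promoter at chr4:119108495-119108794, and Mfsd2a on the minus strand of the same chromosome from 122946850 to 122961188, with its promoter at chr4:122961139-122961438. Capitals mark ACGTG on either strand, the core letters bound by hypoxia-inducible factors and shared by many other elements. It begins 36 bases before the start in Slc2a1, and 107 and 9 bases before it in Mfsd2a.
Slc2a1: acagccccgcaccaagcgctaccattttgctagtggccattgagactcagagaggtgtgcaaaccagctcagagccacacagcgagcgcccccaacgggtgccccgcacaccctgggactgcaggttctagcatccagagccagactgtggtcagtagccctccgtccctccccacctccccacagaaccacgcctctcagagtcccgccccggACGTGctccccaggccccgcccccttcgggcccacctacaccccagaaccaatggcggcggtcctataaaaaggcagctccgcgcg
Mfsd2a: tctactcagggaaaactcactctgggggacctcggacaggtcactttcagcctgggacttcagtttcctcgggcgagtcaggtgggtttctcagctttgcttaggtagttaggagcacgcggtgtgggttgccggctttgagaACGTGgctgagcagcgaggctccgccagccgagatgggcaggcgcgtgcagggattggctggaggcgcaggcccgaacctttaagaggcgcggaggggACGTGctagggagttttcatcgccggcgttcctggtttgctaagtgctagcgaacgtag

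The letters ACGTG occur in 19.7% of 27025 promoters of this length, and in 2 of the 7 promoters of the 10 genes that could be matched to RefSeq. A match describes the sequence and is not evidence of binding.

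Of the endothelial identity genes, none was called in a genotype comparison by edgeR as fitted to the 12 libraries of an age. Pecam1, an adhesion protein of the junctions between endothelial cells, had 21.6, 21.9 and 24.3 CPM in Cb controls of 3 months and 19.2, 19.0 and 21.2 CPM in Tpp1-/- mice. In F/M of 3 months it had 21.4, 22.8 and 21.2 CPM against 20.5, 19.0 and 20.9 CPM. Neither region had overlap between the groups, and the log2 fold changes of -0.19 (standard error 0.09, adjusted p = 0.793) and -0.11 (standard error 0.09, adjusted p = 1) were not called. At 3 months the groups did not overlap for 8.67% of all genes in Cb and 24.1% in F/M. Flt1, which binds VEGF-A and placental growth factor, had its largest difference in F/M at 2 months, from 66.3, 53.8 and 60.0 CPM to 90.2, 63.5 and 73.3 CPM, which is 0.34 on the log2 scale (standard error 0.11, adjusted p = 0.143), with overlap through 1 library of each group. Flt1 passed in 4 of 22 other fits of that comparison, namely without control replicate 1 (0.41, adjusted p = 0.0363, with 12.6% of all genes), without Tpp1-/- replicate 2 (0.44, adjusted p = 0.045), with the replicate number as a block (0.33, adjusted p = 0.0375) and without the filter on low counts (0.32, adjusted p = 0.0046). Tek had log2 fold changes between -0.15 and 0.14 and overlapped between the genotypes in all 6 comparisons. The genes most like Flt1 were Slc4a4 (r = 0.85), Epas1 (0.84) and Gm38255 (0.84). Those most like Pecam1 were Rapgef4 (0.70), Zfp423 (0.69) and Creb5 (0.65), and those most like Tek were Plekho2 (0.78), Elovl7 (0.77) and Tnfsf10 (0.74).

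Vwf, the clotting protein that endothelial cells store in Weibel-Palade bodies, had a log2 fold change below 0 in 6 of 6 comparisons, from -0.02 to -0.45, none of them called (adjusted p of 0.672 or more). Without the filter on low counts it passed in Cb at 2 months (-0.32, adjusted p = 0.0423), where 2.35% of all genes did, and in Cb at 3 months (-0.45, adjusted p = 0.0808), where 1.09% did. At 3 months it had 24.8, 25.3 and 26.3 CPM in F/M controls and 20.2, 21.3 and 19.5 CPM in Tpp1-/- mice, without overlap (log2 fold change -0.32, standard error 0.23, adjusted p = 1). In Cb the controls had 24.0, 21.3 and 36.8 CPM and the Tpp1-/- libraries 12.1, 22.9 and 25.1 CPM, which overlap (log2 fold change -0.45, standard error 0.23, adjusted p = 0.801). Fitted on the 6 F/M libraries of 3 months alone, it passed at -0.32 (edgeR adjusted p = 0.00997), as did 11.1% of all genes. In Cb at 2 months the controls spread from 15.9 to 36.4 CPM, and without control replicate 1 the log2 fold change of -0.58 passed (adjusted p = 0.0535), as did 2.83% of all genes. A list of 9 blood cell genes, hemoglobins among them, summed to 71.9 to 79.9 CPM in F/M controls of 3 months and 35.9 to 59.3 CPM in Tpp1-/- mice, and to 83.0 to 265 CPM and 61.7 to 109 CPM in Cb. Of its 7 genes tested, 0 passed in either region by edgeR, and its part in the values of Vwf was not tested. Grm3 (r = 0.80), Gm10524 (0.77) and Spock2 (0.75) were most like Vwf.

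Of the adhesion receptors, Icam1 had a log2 fold change above 0 in 6 of 6 comparisons. A log2 fold change on 1 side of 0 in all 6 was found for 3.66% of 16713 genes, and among the 10 genes for Icam1, Slc2a1 and Vwf. In F/M at 3 months Icam1 had 2.29, 2.11 and 2.02 CPM in controls and 3.10, 3.14 and 3.29 CPM in Tpp1-/- mice, and in Cb 1.16, 1.47 and 1.64 CPM against 2.51, 1.74 and 2.11 CPM. Neither region had overlap, with log2 fold changes of 0.57 (standard error 0.19, edgeR adjusted p = 0.526) and 0.58 (standard error 0.20, adjusted p = 0.501). Fitted on the 6 F/M libraries alone, its adjusted p was 0.0615, in the fit that passed 11.1% of all genes. In Cb at 2 months it had 1.15, 1.63 and 1.65 CPM against 2.40, 2.18 and 1.94 CPM, again without overlap, as for 18.1% of all genes there (log2 fold change 0.56, standard error 0.20, adjusted p = 0.256).

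The other comparisons of Icam1 were less clear. In F/M at 2 months the controls had 2.35, 2.27 and 2.20 CPM and the Tpp1-/- libraries 2.84, 2.08 and 2.30 CPM, which overlap (log2 fold change 0.10, adjusted p = 0.845). In F/M at 1 month it had 2.00, 1.98 and 1.35 CPM in controls against 2.62, 2.24 and 2.10 CPM in Tpp1-/- mice, without overlap, as for 14.8% of all genes there. In Cb of that age the values were 1.70, 1.49 and 0.705 CPM against 2.48, 1.97 and 1.54 CPM, which overlap, where 7.97% of all genes did not. The lowest control was the Tpp1+/- library in both regions. With it the log2 fold changes were 0.39 in F/M and 0.65 in Cb, and without the heterozygous libraries they were 0.23 and 0.34, none of them called. None of the 6 comparisons passed the adjusted threshold for Icam1.

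Averaged over the 6 comparisons in a fit of all 36 libraries, an average taken after the values were seen, Icam1 had a log2 fold change of 0.48 (standard error 0.09, edgeR adjusted p = 0.00321), where 1.87% of 18322 genes passed. Its adjusted p lay between 0.00105 and 0.0105 in 41 other fits, which left out each library in turn or changed the scaling, filter, test or block. It was the single gene of the 10 to pass in the average, and Vcam1 (0.11, adjusted p = 0.399) and Vwf (-0.20, adjusted p = 0.472) came next by adjusted p. Without Cb control replicate 2 of 1 month Vcam1 passed as well (0.15, adjusted p = 0.0922). Since Icam1 was taken up for these same values, the average is a description of them and not further support.

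**Figure D4:**
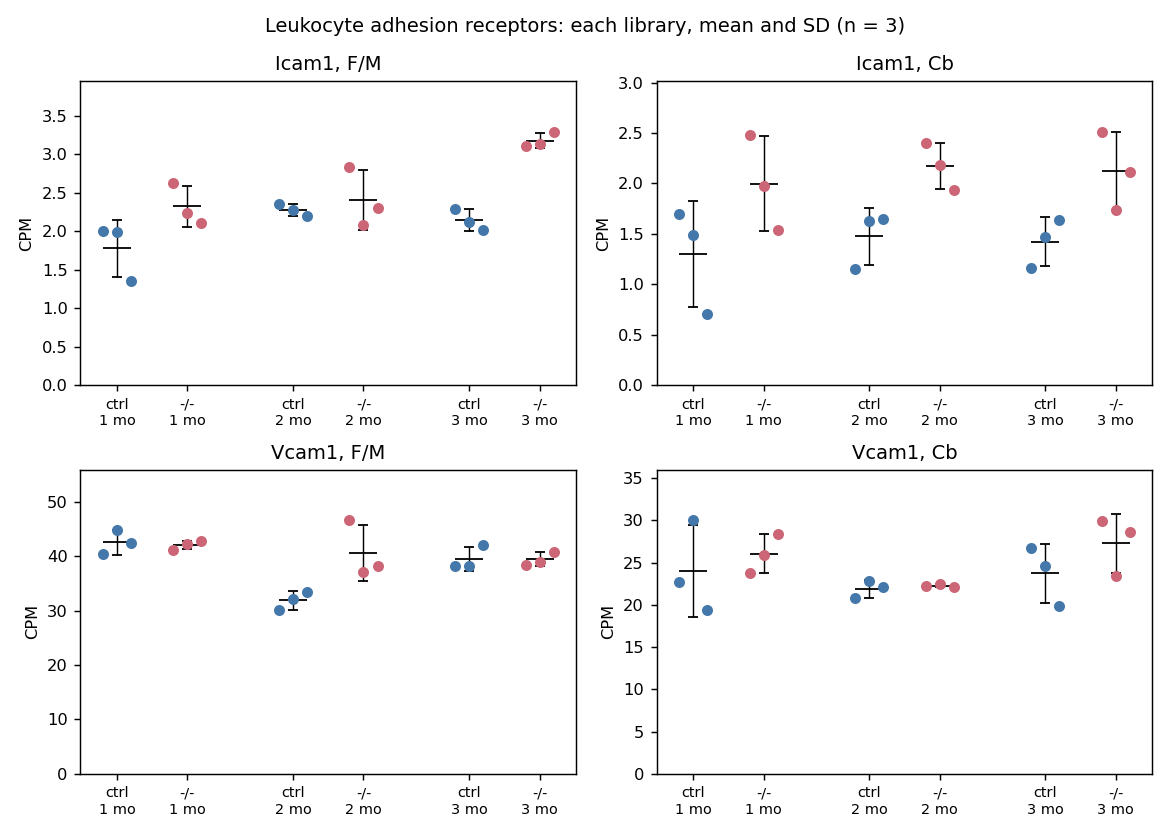
CPM of Icam1 and Vcam1 in each library by region, age and genotype (blue control, red Tpp1-/-), with the mean and SD of 3 libraries. Icam1 does not overlap between the genotypes in F/M at 1 and 3 months, nor in Cb at 2 and 3 months, and Vcam1 does not in F/M at 2 months.

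Icam1 lies on chromosome 9 from 21015985 to 21028817 on the plus strand. Its promoter, at chr9:21015690-21015989 on the plus strand of GRCm38.p6, is shown because the log2 fold change of Icam1 was above 0 in all 6 comparisons and because the gene is a textbook target of NF-kappaB, the transcription factor that inflammatory cytokines activate. Capitals mark GGAANTTCC, read on either strand as a palindromic form of the NF-kappaB site, which begins 153 bases before the start.
Icam1: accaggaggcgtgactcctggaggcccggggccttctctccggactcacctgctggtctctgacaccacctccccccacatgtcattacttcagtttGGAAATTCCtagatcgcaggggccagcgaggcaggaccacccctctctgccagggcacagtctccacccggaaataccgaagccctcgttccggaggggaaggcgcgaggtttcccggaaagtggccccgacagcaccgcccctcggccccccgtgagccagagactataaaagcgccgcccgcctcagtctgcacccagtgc

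The motif occurs in 0.973% of the 27025 promoters, and in 1 of the 7 matched promoters of the 10 genes, that of Icam1. No measurement here bears on binding to it. On a list of 26 NF-kappaB target genes, Cxcl10, a chemokine, was raised at 3 months in F/M by 3.55 on the log2 scale (standard error 0.50, adjusted p = 0.00509), and by 2.67 in Cb (standard error 0.51, adjusted p = 0.0246). Tnfrsf1a, a receptor of tumor necrosis factor, was raised in Cb (0.61, adjusted p = 0.0807), and Cebpd was lower in F/M (-0.89, adjusted p = 0.0867). That made 1 higher and 1 lower of 20 tested in F/M, and 2 higher of 20 in Cb, with a median log2 fold change of 0.10 and 0.03 beside -0.003 over all genes in each region. At 2 months Ptgs2 was lower in F/M (-0.67, adjusted p = 0.0312) and no gene of the list passed in Cb, nor at 1 month in either region.

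Icam1 is not limited to endothelium, and microglia also make it under inflammation. A list of 14 microglia genes summed to 535 to 570 CPM in F/M controls and 731 to 807 CPM in Tpp1-/- mice at 3 months, and to 193 to 237 CPM and 419 to 652 CPM in Cb, with 4 and 12 of 14 higher at an adjusted p under 0.1. At 1 month the same sums were 471 to 505 CPM against 517 to 559 CPM in F/M and 173 to 213 CPM against 222 to 247 CPM in Cb, with 0 of 14 called by edgeR in either region. In Cb at 2 months, where Icam1 did not overlap between the groups, the microglia sum did, at 192 to 234 CPM and 210 to 214 CPM. No gene of the list was at 0 in any library. The part of microglia in the values of Icam1 was not tested. The genes most like Icam1 over the 36 libraries were Lgals1 (r = 0.78), Unc93b1 (0.78), which carries Toll-like receptors to endosomes, and Npc2 (0.74), a lysosomal cholesterol-binding protein. The antisense gene Gm47079 shares 511 of the 4360 exon bases of Icam1, and in Cb, where the log2 fold changes of Icam1 were 0.56 to 0.65, it had at most 0.365 CPM in any library. In F/M it had 1.03 to 1.92 CPM, close to the 1.35 to 3.29 CPM of Icam1 there, and its log2 fold changes of -0.25 to 0.24 in F/M were not called by edgeR. Its part in the counts of Icam1 was not tested.

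Vcam1 was the gene of the 10 that passed in a single age and region. In F/M at 2 months it had 30.1, 32.2 and 33.5 CPM in controls and 46.6, 37.2 and 38.3 CPM in Tpp1-/- mice, without overlap. Its log2 fold change was 0.36 (standard error 0.08, edgeR adjusted p = 0.047), a fold of 1.28, below the minimum of 1.5 for a DEG. The adjusted p stayed under 0.1 in 16 of 22 other fits. In 3 of the remaining 6 the log2 fold change was about as large, at 0.36 on the 6 libraries alone (adjusted p = 0.19), 0.39 without control replicate 3 (adjusted p = 0.121) and 0.39 without Tpp1-/- replicate 3 (adjusted p = 0.123). In the other 3 it was smaller, at 0.24 without Tpp1-/- replicate 1 (adjusted p = 0.306), 0.19 with the choroid plexus score and 0.25 with the midbrain and thalamus score. In the other 5 comparisons the log2 fold change of Vcam1 was between -0.02 and 0.20 and the groups overlapped. Maob (r = 0.80), Slc39a12 (0.77) and Aldh1a1 (0.77) were most like Vcam1. In F/M at 2 months the sums of 12 astrocyte genes did not overlap either, at 5277 to 6170 CPM in controls and 6512 to 8065 CPM in Tpp1-/- mice. Their part in the values of Vcam1 was not tested.

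F/M at 2 months was the comparison in which the 10 genes leaned most to 1 side. There 9 of 10 had a log2 fold change above 0, as did 50.8% of all genes, and their median was 0.24 beside 0.004 over all genes. Tpp1-/- replicate 1 was the highest of the 6 libraries for Slc2a1, Abcb1a, Pecam1, Flt1, Tek, Mfsd2a, Icam1 and Vcam1, and Tpp1-/- replicate 2 the lowest of its group for all 10 genes. Without replicate 2, 6 of the 10 passed at an adjusted p under 0.1, namely Slc2a1 (0.47), Flt1 (0.44), Cldn5 (0.42), Vcam1 (0.41), Mfsd2a (0.35) and Pecam1 (0.30), all as log2 fold changes, where 5.81% of all genes passed. Without replicate 1 none did, where 0.224% of all genes passed, and Vcam1 had 0.24.

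Other vascular genes passed the adjusted threshold in F/M at 2 months. Fzd4, the receptor for norrin in retinal and brain vessels, was higher (log2 fold change 0.55, standard error 0.08, adjusted p = 0.00559), as were Sox18 (0.66, adjusted p = 0.099), an endothelial transcription factor, and the junction genes Jam2 (0.31, adjusted p = 0.0509) and Cgnl1 (0.34, adjusted p = 0.0722). Of the pericyte genes, Notch3 (0.48, adjusted p = 0.0617) and Rgs5 (0.35, adjusted p = 0.0651) were higher. Slc19a3, a thiamine transporter, was higher (0.48, adjusted p = 0.0994), while Cd34 (-0.23, adjusted p = 0.0951), the transferrin receptor gene Tfrc (-0.25, adjusted p = 0.0897) and the venular gene Ackr1 (-0.32, adjusted p = 0.0617) were lower. By list, 1 higher and 1 lower of 31 endothelial genes, 2 higher of 18 junction genes, 1 higher of 31 vascular ligand and receptor genes, 2 higher of 14 pericyte genes and 1 higher and 1 lower of 30 transport genes passed, beside 3.17% of all genes. In the lists of 8 capillary, 9 venous and 17 adhesion genes tested, 0 were higher and 1 lower in each, Tfrc in the first and Ackr1 in the other two.

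Markers of other tissue moved in the same libraries. The 10 forebrain genes summed to 861 to 891 CPM in controls and 760 to 777 CPM in Tpp1-/- mice, without overlap, with 1 lower. Of 10 cerebellum genes 4 were higher, and of 15 midbrain and thalamus genes 2 were higher and 13 lay above 0. Of 14 choroid plexus genes 9 were higher and the sum was 254 to 650 CPM in controls and 559 to 764 CPM in Tpp1-/- mice. Of 12 astrocyte genes 4 were higher, Aqp4 (0.53, adjusted p = 0.0076), Slc1a2 (0.43, adjusted p = 0.076), Gja1 (0.35, adjusted p = 0.0404) and Gfap (0.31, adjusted p = 0.0468), and the sums were 5277 to 6170 CPM and 6512 to 8065 CPM, without overlap. With the choroid plexus score of each library as a covariate, Vcam1 had a log2 fold change of 0.19 (adjusted p = 0.304), Slc2a1 one of -0.003 and Cldn5 one of -0.11, and 16.7% of all genes passed. Pecam1 had -0.02 and Mfsd2a 0.008 in that fit, while Flt1 and Abcb1a stayed at 0.18 or above in all 22 other fits of this comparison. With the midbrain and thalamus score, Vcam1 had 0.25 (adjusted p = 0.182) and Slc2a1 0.10, and 6.22% of all genes passed. Most of the choroid plexus genes were themselves called by genotype in this comparison, so a fit with their score does not separate score from genotype. The part of these markers in the values of the 10 genes was not tested.

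In Cb at 2 months, 8 of the 14 choroid plexus genes were higher as well, while the 10 genes had a median log2 fold change of 0.02 and 6 of them lay above 0, as did 50% of all genes. In a fit that took in each library's choroid plexus score, Cldn5 passed the adjusted p there at -0.43 (adjusted p = 0.0987), against -0.19 without it, and 11.8% of all genes passed. The choroid plexus sums in Cb at 2 months were 1035 to 1334 CPM in controls and 1685 to 1866 CPM in Tpp1-/- mice, without overlap. Score and genotype therefore cannot be told apart in that fit. Slc7a3, a cationic amino acid carrier, was the single transport gene to pass there, with a log2 fold change of -0.93 (adjusted p = 0.0325), and no endothelial, junction or pericyte gene passed by edgeR. At 1 month no gene of these lists passed in either region. At 3 months 0 of 31 endothelial genes passed in F/M and 1 in Cb, Nostrin, a regulator of endothelial nitric oxide synthase (0.64, standard error 0.15, adjusted p = 0.0807). No junction, transport, ligand or pericyte gene passed at that age in either region. Those that did pass among the adhesion genes were the leukocyte integrins Itgax (4.31 in F/M and 4.53 in Cb) and Itgb2 (0.87 and 1.28), which microglia also express, 2 of 19 genes in each region.

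Whether a genotype effect differed between regions or ages was tested as such. The difference between the effects in Cb and F/M passed for none of the 10 genes by edgeR at any age, where it did for 0%, 2.97% and 0.00581% of all genes at 1, 2 and 3 months. At 2 months 3 of the 10 had p under 0.05 before adjustment, as did 11.5% of all genes, with 0 at 1 and 3 months (1.94% and 3.51%), and limma-voom and DESeq2 called none at any age. Without Tpp1-/- replicate 2 of F/M, Cldn5 (-0.61, adjusted p = 0.0605) and Mfsd2a (-0.50, adjusted p = 0.0649) passed at 2 months, as did 3.61% of all genes. The effect at 3 months minus that at 2 months, and minus that at 1 month, passed for none of the 10 in either region by edgeR in the fit of all 36 libraries, where 0.393% and 0.153% of all genes passed in F/M and 1.44% and 0.458% in Cb. Of these differences, 3 of the 10 genes had an unadjusted p under 0.05 for 3 minus 2 months in F/M, as did 8.12% of all genes, with none for 3 minus 2 months in Cb (6.41%) or for 3 minus 1 months in F/M (5.41%) and Cb (7.91%).

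The regions themselves differed for Vcam1 at every age. The controls of 1 month had 40.4, 44.9 and 42.5 CPM of it in F/M, against 22.7, 30.0 and 19.4 CPM in Cb. Those of 2 months had 30.1, 32.2 and 33.5 CPM against 20.8, 22.8 and 22.1 CPM. At 3 months the values were 38.3, 38.3 and 42.1 CPM against 26.7, 24.6 and 19.9 CPM. F/M was above Cb without overlap at each age, where the regions did not overlap for 65.9%, 67.6% and 63.6% of all genes. The log2 difference of Cb against F/M was -0.83 (standard error 0.13, edgeR adjusted p = 5.73e-05), -0.54 (standard error 0.09, adjusted p = 2.18e-05) and -0.74 (standard error 0.12, adjusted p = 0.000142).

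Icam1 and Mfsd2a were also lower in Cb at 2 and 3 months. For Icam1 the log2 difference was -0.61 (adjusted p = 0.0134) at 2 months and -0.59 (adjusted p = 0.0289) at 3 months, and for Mfsd2a it was -0.53 (adjusted p = 0.00034) and -0.47 (adjusted p = 0.0158). Without Cb control replicate 1, Icam1 did not pass at 3 months (-0.47, adjusted p = 0.11). At 1 month the differences were -0.47 and -0.42, with adjusted p of 0.22 and 0.276. Icam1 passed at 1 month without Cb control replicate 1 (-0.73, adjusted p = 0.0957) and ranged from -0.73 to -0.15 over 19 other fits. Mfsd2a passed without F/M control replicate 1 (-0.68, adjusted p = 0.0804). Without the 4 libraries numbered 1, Mfsd2a passed at 1 month too, at -0.46 (adjusted p = 0.00307). It also passed there with F/M and Cb control libraries of 1 number as a block (-0.40, adjusted p = 0.00726), as did 61.4% of all genes, and without the filter on low counts (-0.42, adjusted p = 0.00417), as did 33.7%. The list of 14 microglia genes, all 14 of which were lower in Cb at each age, moved the same way as Icam1, and its part in that difference was not tested.

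At 2 months, and at that age alone, barrier and identity genes passed as higher in Cb, namely Abcb1a (0.49, adjusted p = 0.000307), Flt1 (0.43, adjusted p = 0.00237), Cldn5 (0.36, adjusted p = 0.0305), Pecam1 (0.23, adjusted p = 0.0571) and Slc2a1 (0.20, adjusted p = 0.0979). Abcb1a had 40.8, 53.4 and 48.9 CPM in Cb and 34.5, 33.3 and 34.5 CPM in F/M of those controls. At 1 and 3 months the log2 differences of these 5 genes lay between -0.16 and 0.11 and did not pass, and whether they changed with age was not tested. Without single libraries Slc2a1 lost the call in 6 fits, with log2 differences of 0.16 to 0.22, and Pecam1 in 2, at 0.18 and 0.23. Vwf passed there without Cb control replicate 1 (0.47, adjusted p = 0.0118) and without the filter on low counts (0.22, adjusted p = 0.0505), where 66.4% and 39.8% of all genes passed. In all, 1, 8 and 3 of the 10 genes passed at 1, 2 and 3 months, against 59.4%, 70.1% and 57.8% of all genes. By the DEG rule 1, 1 and 2 of the 10 passed, Vcam1 at 1 and 3 months and Icam1 at 2 and 3 months, against 36.9%, 39.3% and 37.7% of all genes.

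**Figure D5:**
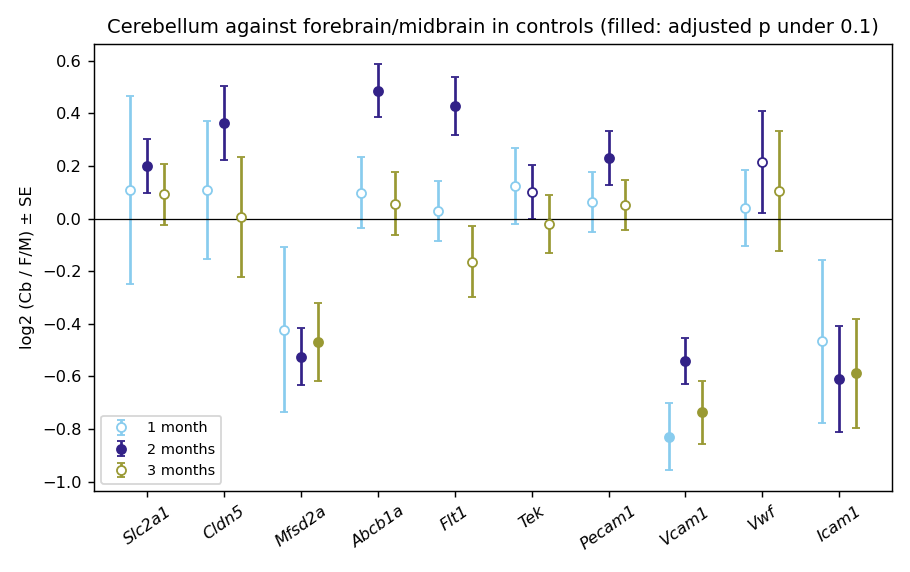
Log2 difference of Cb against F/M in control libraries with its standard error for each gene and age, 3 libraries per region. Filled points have an adjusted p under 0.1, and Vcam1 lies between -0.83 and -0.54, with Icam1 at -0.61 at 2 months.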

How the data were processed

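Total RNA was extracted with TRIzol and RNeasy columns and sequenced from stranded mRNA libraries. The submitters' processing notes name STAR 2.5.2b and the mouse genome mm10, and the authors deposited gene counts made with featureCounts, per the file headers version 1.6.3 at 1 month and 1.6.2 at 2 and 3 months, with GENCODE releases M21, M16 and M18. The headers name strand setting 1 at 1 and 3 months and 2 at 2 months, and fractional counting of reads that map to several places, although the values are whole. Annotation and counting thus differ between ages.

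The deposited counts were used as they stand. At each age, genes with low counts were removed with filterByExpr, which left 17916, 17229 and 17224 genes, and edgeR 4.0.16 (quasi-likelihood test, TMM scaling) was fitted to all 12 libraries with 1 term per region and genotype. P-values were adjusted over all genes by Benjamini-Hochberg, with the threshold at 0.1 and, for a DEG, a fold change of at least 1.5. Genotype was compared within each age and region, and regions within controls. Age differences and the average were fitted on 36 libraries. DESeq2 1.42.0, limma 3.58.1 (voom), other scalings and filters, marker scores, the replicate number as a block and each library left out were alternatives. RPKM used each file's exon lengths. Promoters are from RefSeq. In data simulated for Cb, 136, 175 and 149 of 200 changed genes were called at 1, 2 and 3 months, with 10, 25 and 19 false calls. These counts were not split by size of change. The share called at the sizes seen in the 10 genes was not tested separately.

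The 10 genes and the gene lists were chosen with earlier results of these data known. Genes named from a list are up to 4 that passed by size, and for each of the 10 genes the 3 others with the highest correlation. Same-numbered control and Tpp1-/- libraries correlated in their deviations from group means between -0.0855 and 0.229, so numbers were not taken as pairs. For F/M and Cb libraries of 1 number the correlations were 0.124 to 0.198 in controls of 1 month, where the block is given, and -0.0395 to 0.0128 in controls of 2 and 3 months.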

Additional observations from a re-analysis of the deposited data

Results flagged for a closer look

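The contrast between the libraries labelled Female and Male differed between 1 and 3 months in F/M for 4 of the 10 genes, at an adjusted p under 0.1 by edgeR, as for 6.89% of all genes. The contrast was taken up after the libraries numbered 1 at 1 month had been seen to stand apart in these genes, so its values describe that split and are no further test of it. The log2 difference at 1 month minus that at 3 months was -1.16 for Slc2a1, -1.19 for Mfsd2a, 0.87 for Cldn5 and -0.30 for Abcb1a. In Cb, where 0.123% of all genes passed and none of the 10 did, it was -1.24 for Slc2a1. The label went against the Y-linked genes and Xist in 4 libraries at 1 month and 8 at 3 months, so the contrast is one of libraries and not of sex, and 1 library per region and genotype carries the label at each age.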

How the results depend on the processing

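No DEG call among the 10 genes was made in the genotype comparisons by edgeR as reported, and among the alternatives 1 appeared, for Slc2a1 in Cb at 2 months with the midbrain and thalamus score as a covariate (log2 fold change 0.98, adjusted p = 0.0957), a count of 1, where 1.02% of all genes passed. Those markers summed to 741 to 756 CPM in controls and 658 to 669 CPM in Tpp1-/- mice there, without overlap, so score and genotype cannot be told apart, and 7 others of the 10 genes moved too, Icam1 to 0.86 and Vwf to 0.76. By the adjusted p alone the count was 1 in F/M at 2 months and 8 for the region difference at 2 months. By the DEG rule the region difference had 1 gene at 2 months and 2 at 3 months, and scaling by library totals gave 0 and 1, since Icam1 at 2 months moved from -0.61 to -0.58, under the fold-change minimum. The same 8 genes kept an adjusted p under 0.1 at 2 months with that scaling. At 3 months that scaling moved the median region difference of all genes from 0.04 to 0.15. The average over 6 comparisons had 3 genes past the adjusted p without the filter on low counts (Icam1, Slc2a1 at 0.15 and Vwf at -0.20). In F/M at 2 months that fit also passed Slc2a1, Flt1 and Abcb1a, beside Vcam1 and 3.46% of all genes. With each library left out in turn, region DEGs numbered 1 to 2 at 1 month, 0 to 1 at 2 months and 1 to 2 at 3 months. By the adjusted p alone, 0 to 2 genes passed for the region by genotype difference at 2 months and 1 to 2 in the average. The median log2 fold change of the 10 genes lay at -0.124 to -0.047 for F/M of 3 months and at -0.0499 to 0.0517 for Cb of that age. At 2 months it spanned 0.12 to 0.34 (F/M) or -0.06 to 0.08 (Cb), and at 1 month -0.09 to 0.02 or -0.05 to 0.16. No result changed sign while called. The cause of these shifts was not tested. Icam1 had 20 to 66 counts per library.

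With a block for the replicate number inside each region, 3 of the 10 passed the adjusted p in F/M at 2 months, Vcam1 (0.35, adjusted p = 0.0756), Flt1 (0.33, adjusted p = 0.0375) and Abcb1a (0.27, adjusted p = 0.0781), where 3.52% of all genes passed, and 0 by edgeR in the other 5 genotype comparisons, with no DEG. Among all genes the block gave 124 (F/M) and 306 (Cb) DEGs at 2 months, then 64 and 123 at 3 months. With F/M and Cb libraries of 1 number as a block, the call of Mfsd2a in the region comparison at 1 month changed, as given with that comparison. Libraries correlated best with their own number in 6 of 6 cases in F/M at 1 month. In the other 5 age and region sets it was 2 to 5 of 6, a hint from the data. The labels name no pairs, although the label Female fell on the same number in both genotypes at 1 and 3 months.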

Other observations

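Genes of other cells of the vessel wall were counted by list. Of the smooth muscle list 9 or 10 genes were tested, depending on age, and of the arterial list 12. Both had 0 calls by edgeR at an adjusted p under 0.1 in the 6 comparisons, where between 0.0112% and 3.17% of all genes passed. Lists this short would have few or no calls at those shares. Of 14 pericyte genes, 2 were higher in F/M at 2 months and 0 passed in the other comparisons. Arterial genes summed to 157 to 166 CPM in Tpp1-/- mice and 165 to 180.0 CPM in controls in F/M at 3 months, where 1 of 12 had a log2 fold change above 0. Smooth muscle genes summed to 56.5 to 65.5 CPM and 66.7 to 68.6 CPM there. The 8 capillary genes summed to 1381 to 1450 CPM in Tpp1-/- mice and 1517 to 1535 CPM in controls in F/M at 3 months, without overlap and with 0 of 8 above 0. Taken singly, 24.1% of all genes did not overlap in that comparison. Markers of other regions lay lower in those libraries too. The 15 midbrain and thalamus genes summed to 402 to 481 CPM in Tpp1-/- mice and 562 to 588 CPM in controls, with 1 lower and 1 of 15 above 0, and the 10 cerebellum genes to 262 to 298 CPM and 304 to 330 CPM, with 0 of 10 above 0. Their part in these sums was not tested. Of the venous genes, Ctsc, a lysosomal protease that microglia also express, was higher in Cb at 3 months (log2 fold change 0.87, standard error 0.12, edgeR adjusted p = 0.00281), the single call of 9 tested, and Selp was at 0 in some libraries of every group. Gfap, the intermediate filament of astrocytes, whose endfeet cover the vessels, was higher at 3 months in F/M (1.41) and Cb (1.77).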
